A study of Mus musculus with 272 samples.

Results

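The transcriptomes of 4 pools of mouse morulae were compared with those of 4 pools of mouse blastocysts. These are 8 of the 272 libraries of a study that followed RNA from the germinal vesicle (GV) oocyte to the blastocyst. Libraries were chosen by their labels alone, as the 4 morula and the 4 blastocyst transcriptome columns of the deposited table, lettered A to D in each stage. The study covered 8 stages. Each stage had 4 transcriptome libraries, made from pools of 20 oocytes or embryos, and 3 sucrose gradients of about 100 oocytes or embryos cut into 10 fractions. Transcriptome pools came from the batches used for the gradients, and their polyadenylated RNA was copied and amplified by a Smart-seq method. The labels name stage and fraction only, and strain, culture and hour of collection are not given in the sources used here. Each library is a pool of whole embryos, so the cell types of the blastocyst were measured as a mixture.

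The morula is a compacted ball of cells in which outer cells become polarized and inner cells do not. In the blastocyst the outer cells form the trophectoderm, a sealed epithelium that pumps fluid into the blastocoel and later gives rise to trophoblast. The inner cell mass beside the cavity holds the epiblast, which forms the embryo, and the primitive endoderm, which lines the cavity and lays down basement membrane.

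Levels are in CPM, in which the reads of each gene are expressed per 1 M reads of its library. CPM is not scaled to transcript length, so levels are compared between stages for 1 gene and not between genes. Changes are blastocyst minus morula on the log2(CPM + 1) scale, on which a change of 1 is a doubling for a gene well above 1 CPM and more than a doubling for a low gene. Library values are given in the order A, B, C and D. A gene was called when its adjusted p in limma's moderated test was under 0.05 and its change was at least 1 in size. Limma's p-values and standard errors (SE) rest on the spread within all stages of the fit, not within morulae and blastocysts alone. With only the morula and blastocyst libraries in the fit, 3834 genes were called, and 88 passed the size threshold but not the adjusted p. In the fit of all stages these counts were 3917 and 5. The labels do not say whether the pools came from separate matings, so the spread between pools may be technical.

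The 8 libraries held 15.99 to 24.3 M reads. Genes at 1 CPM or more numbered 11049 to 11260 in morulae and 11577 to 11663 in blastocysts (difference 484, exact two-sided permutation p = 0.0286, Benjamini-Hochberg adjusted p = 0.0429 over 3 measures, and the smallest p that 4 against 4 libraries allow is 0.0286). Reads of 18S ribosomal RNA took 3.79, 0.861, 1.31 and 1.49% of the total in morulae and 5.74, 11.2, 6.97 and 3.84% in blastocysts (exact permutation p = 0.0286, adjusted p = 0.0429). Mitochondrially encoded genes fell from 1.07% ± 0.191 to 0.620% ± 0.0988 of the total (SD, n = 4 each, exact permutation p = 0.0286). The 100 most abundant genes took 28.1% ± 0.769 and 28.1% ± 2.38 (exact permutation p = 0.971). The stage labels were checked against markers. The summed level of 7 trophectoderm markers was 217 to 265 CPM in morulae and 2215 to 2853 CPM in blastocysts. None of the 7 was at or under the floor of 3 reads in all 4 libraries of a stage. Krt7 had no read in morula library B. Inner cell mass markers (6 genes) summed to 206 to 307 CPM in morulae and 245 to 331 CPM in blastocysts. Markers of cumulus and granulosa cells (3 genes measured, Cyp19a1 and Inha highest) and of oviduct and uterus (1 gene, Hoxa10) summed to less than 1 CPM in every one of the 8 libraries. The sperm markers Odf1 and Prm2 together reached at most 0.912 CPM in morulae and 1.11 CPM in blastocysts.

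Of 14642 genes tested, 3917 were called between morula and blastocyst, which is 26.8%. The calls comprised 2750 genes higher in blastocysts (18.8% of those tested) and 1167 lower (7.97%). How far rises outnumbered falls depended on the scale. The deposited scale places the median change of all genes at 0.16. With trimmed-mean (TMM) factors, which place it at 0.01, the calls were 1979 higher (13.5%) and 1612 lower (11%). With quantile normalization they were 1785 higher (12.2%) and 1731 lower (11.8%), and edgeR's quasi-likelihood test on the recovered reads gave 2305 higher (15.7%) and 2292 lower (15.7%). All 4 blastocyst libraries lay above all 4 morula libraries in 3888 genes (26.6%) and below them in 2019 (13.8%), so that 40.3% of genes had groups that did not overlap. No gene called in one direction was called in the other under any of the 23 alternatives tried. Without a threshold on the size of the change, 7420 genes passed the adjusted p.

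**Figure D1:**
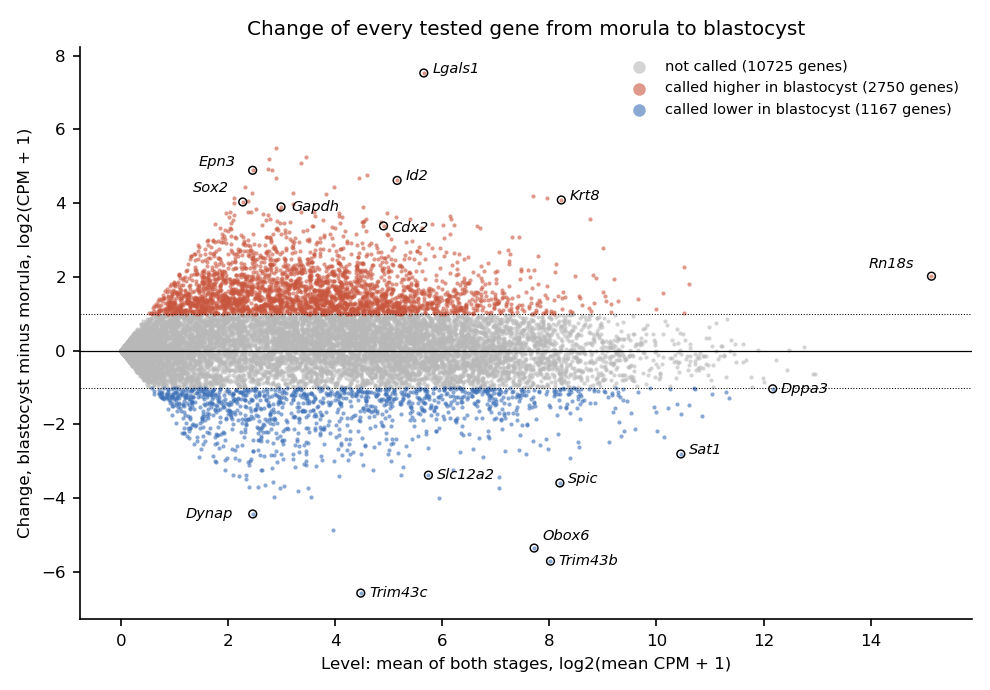
Change of each of the 14642 tested genes from morula to blastocyst on the log2(CPM + 1) scale (vertical axis) against its level over both stages (horizontal axis, log2). Red points are the 2750 genes called higher and blue points the 1167 called lower, dotted lines mark a change of 1 in either direction, and circles mark 16 genes named in the text, from Lgals1 at 7.53 to Trim43c at -6.57.

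The largest rise was that of Lgals1, and the 12 largest held genes of varied function. Lgals1, which encodes the sugar-binding protein galectin-1, stood at 3.19, 1.78, 2.89 and 2.76 CPM in morulae and at 587, 478, 1014 and 692 CPM in blastocysts. Every blastocyst library lay far above every morula library, and the ratio of the means was 261 (change 7.53 ± 0.22 SE, limma adjusted p = 3.62e-24). Adh1, the alcohol and retinol dehydrogenase 1, gave 0 reads in 3 morula libraries and 2 reads in the fourth, against 51.1, 15.4, 81.8 and 62.7 CPM in blastocysts. Blastocyst library B was the lowest of the 4 and still stood apart from all morula libraries. Epn3, an epsin-family adaptor of endocytosis, had no read in any morula library and 21.9, 29.3, 37.9 and 27.7 CPM in blastocysts, at least 210.1-fold higher against a floor of 3 reads per library. Prss8, the epithelial membrane protease prostasin, went from 0.207 ± 0.197 to 36.5 ± 10.8 CPM, and Wfdc2, a secreted epithelial protein, from 0.757 ± 0.456 to 58.4 ± 11.4 CPM (mean ± SD, n = 4 each). Pmepa1, an inhibitor of TGF-beta signaling, rose from 0.282 ± 0.225 to 37.5 ± 9.27 CPM, and Socs1, an inhibitor of cytokine signaling, from 3.64 ± 1.9 to 124 ± 57.5 CPM. Rab11fip4, an effector of the recycling GTPase Rab11, rose by 4.67 ± 0.25, Dppa1 by 5.25 ± 0.25, Fam25c by 5.19 ± 0.20 and Anxa6, a calcium-dependent membrane-binding annexin, by 4.67 ± 0.21 (limma adjusted p at most 1.40e-11 over the 12 largest rises).

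The largest falls were led by gene families of the cleavage embryo. Trim43c, of a tripartite-motif family with several near-identical copies, stood at 199, 295, 202 and 153 CPM in morulae and at 0.771, 0.952, 0.667 and 2.93 CPM in blastocysts. All 4 blastocyst libraries were low, and the mean was 159.5-fold lower (change -6.57 ± 0.30, limma adjusted p = 9.91e-19). Its paralog Trim43b went from 937, 2231, 2603 and 1784 CPM to 29.5, 28.8, 24.4 and 55.9 CPM. Morula library A was the lowest of its stage and still more than 10 times above any blastocyst library. Obox6, an oocyte-specific-homeobox family gene, went from 622, 1376, 1941 and 1500.5 CPM to 22.7, 34.4, 21.4 and 47.2 CPM (change -5.35 ± 0.26). Reads of such copies may have been split or dropped in the authors' counting, whose handling of shared reads is not given in the sources used here. Outside these families, Cst7, the protease inhibitor cystatin F, fell from 79.8 ± 14.5 to 1.97 ± 1.13 CPM, Oasl2, of an interferon-induced family, from 44.7 ± 13.5 to 1.97 ± 1.02 CPM and Arg1, the urea-cycle enzyme arginase 1, from 35.3 ± 10.6 to 1.71 ± 1.32 CPM. Dynap fell by 4.43 ± 0.29, Eif1ad7 by 3.95 ± 0.30, and Cd24a, a surface glycoprotein, by 3.72 ± 0.28. Ppp2r2b, a regulatory subunit of protein phosphatase 2A, fell by 3.71 ± 0.23, Abcb5, a membrane transporter, by 3.70 ± 0.27 and Ptpn22, a tyrosine phosphatase, by 3.69 ± 0.21 (limma adjusted p at most 5.05e-12 over the 12 largest falls).

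Among called genes ranked by the gain of mean CPM, the first included Rn18s (18S ribosomal RNA), Lars2, Ftl1, Fabp3, Krt8, Stard10 and Pfn1. Genes that were not called, such as Actb, were left out of this ranking. Lars2, the mitochondrial leucyl-tRNA synthetase, stood at 1854, 292, 330.5 and 545 CPM in morulae and at 2575, 3473, 3745 and 1602 CPM in blastocysts. Morula library A was highest of its stage both for Lars2 and for 18S ribosomal RNA, and blastocyst library D lowest of its stage for both. Whether reads counted for Lars2 come from ribosomal RNA was not tested, so its level and its gain are uncertain. The call of Rn18s was lost with quantile normalization. Ftl1, the ferritin light chain that stores iron, went from 1127, 650.4, 725 and 848 CPM to 2669.8, 3200.1, 2878 and 2799.7 CPM with no overlap (change 1.81 ± 0.18, limma adjusted p = 2.83e-10). Stard10, a lipid-transfer protein, rose by 2.78 ± 0.27. Pfn1, the actin-binding profilin, rose by 1.02 ± 0.14, but its call was lost with TMM factors, in edgeR, in DESeq2, with the trend on GC content removed, and without morula replicate B or C or blastocyst replicate B. The 8 called genes that lost most CPM, provisional symbols aside, were Dppa3, Sat1, CYTB, Npm1, Fbxo15, Eif5, Trim43b and Hprt. Sat1, the enzyme that acetylates spermidine and spermine, stood at 3314, 4598, 3349 and 3561 CPM in morulae and 575, 432, 584 and 529 CPM in blastocysts, 6.99-fold lower with libraries tight in both stages (limma adjusted p = 1.09e-17). Fbxo15, an F-box gene of pluripotent cells, fell from 1208, 2832, 3359 and 2967 CPM to 482, 484, 319 and 686 CPM. Npm1, the nucleolar protein nucleophosmin, fell by 1.29 ± 0.13, Hprt, of purine salvage, by 1.18 ± 0.18 and the translation factor Eif5 by 1.11 ± 0.14. These last 3 calls were lost when the trend on GC content was removed, and that of Eif5 also without blastocyst replicate A. CYTB, the mitochondrially encoded cytochrome b, fell by 1.77 ± 0.26.

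The regulators of the trophectoderm rose for the most part. Of 18 tested, 11 were called higher (background 18.8%) and 2 lower (background 7.97%). The median change was 1.58 against 0.16 over all genes. The same background shares apply to every list that follows. Members of the lists were chosen with earlier results of these data known, so counts per list describe the genes chosen and test no class of genes. Cdx2, the homeobox factor needed to maintain the trophectoderm, stood at 14.3, 4.16, 8.21 and 7.66 CPM in morulae and 78.5, 109, 89.5 and 93.3 CPM in blastocysts. Morula library B was the lowest and no morula library came near the blastocyst range (change 3.38 ± 0.31, limma adjusted p = 3.62e-11). Since the pools are whole embryos, more cells of a type and more RNA per cell cannot be told apart, here or in any result that follows. Gata3, a zinc-finger factor acting beside Cdx2, went from 16.6, 14.2, 12.9 and 14.8 CPM to 186, 137, 168 and 132 CPM, 10.6-fold higher and with little spread in either stage. Eomes, a T-box factor of trophoblast stem cells, went from 0.608, 1.39, 1.24 and 2.31 CPM to 24.9, 22.8, 26.4 and 16.4 CPM. Id2, an inhibitor of basic helix-loop-helix factors, had the largest change of the list, from 5.82, 9.75, 5.08 and 4.53 CPM to 207, 145, 178 and 163 CPM (change 4.62 ± 0.29). Gata2 (change 3.34), Elf3 (3.34) and Tfap2a (3.32), 3 further trophoblast transcription factors, rose to a like extent, and Arid3a (2.60), Ets2 (1.66), Msx2 (1.49) and the receptor Fgfr2 (1.35) rose less. The 2 that fell were Hand1, a factor of trophoblast giant cells, from 64.7, 45.9, 48.1 and 63.9 CPM to 6, 8.01, 8.26 and 12.6 CPM, and Ovol2, an epithelial zinc-finger factor, from 66.1 ± 18.1 to 10.8 ± 3.32 CPM. Not called were Tfap2c (change 0.49), Tead4 (0.04), Klf5 (0.41), Grhl1 (0.16) and Grhl2 (0.25). Tead4, the DNA-binding partner of the Hippo effector Yap1 upstream of Cdx2, stood at 127, 86.2, 81.9 and 83.8 CPM and 112, 85.7, 104 and 84 CPM, with overlapping libraries.

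Most listed products of the trophectoderm epithelium rose. Of 22 tested, 17 were called higher and 1, Cd24a, lower, with a median change of 2.46. Lgals1, the largest rise named above, is on this list, whose members were chosen with earlier results of these data known. The counts therefore describe the genes listed and do not test trophectoderm products as a class. Krt8, a type II keratin of simple epithelia, stood at 73.6, 61.5, 56.5 and 96.7 CPM in morulae and 1228, 1122, 1396 and 1128 CPM in blastocysts. Its partner in keratin filaments, Krt18, went from 46.6, 43.5, 47.2 and 49.9 CPM to 969, 812, 1049 and 714 CPM. The morula and blastocyst libraries were wide apart for both genes, with ratios of the means of 16.9 for Krt8 and 18.9 for Krt18 (limma adjusted p = 1.68e-14 and 6.53e-16). Krt7, another simple-epithelial keratin, rose from 0.386 ± 0.455 to 8.02 ± 1.16 CPM, while Krt20 was listed at 0 in all 8 libraries. At the cell surface and below the membrane, Epcam, an epithelial adhesion molecule, rose by 4.14 ± 0.22 and Ezr, which ties actin to the apical membrane, by 2.91 ± 0.33. Ptges, a prostaglandin E synthase, rose by 3.57 ± 0.37 and Tinagl1, a secreted matrix protein, by 3.08 ± 0.21. Cd24a went the other way, from 27.1, 38.6, 16.6 and 23.9 CPM to 1.11, 0.728, 3 and 0.122 CPM. With TMM factors 15 of the 22 were higher, and with the trend on GC content removed 16.

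Promoter sequences of 4 of these genes are shown because the genes rose together. They are the 250 bases before the start of transcription, from RefSeq on GRCm38.p6, read 5′ to 3′ on the strand of the gene. Capitals mark 3 motifs, searched on both strands. TEAD factors are known to bind CATTCC, the zinc-finger factors such as Gata3 AGATAA, and TFAP2 factors GCCNNNGGC. Krt8 (chr15:102004343-102004592, minus strand) and Krt18 (chr15:102027966-102028215, plus strand) are neighbours on the chromosome. Cdx2 lies at chr5:147307250-147307499 (minus strand) and Gata3 at chr2:9878601-9878850 (minus strand).
Krt8: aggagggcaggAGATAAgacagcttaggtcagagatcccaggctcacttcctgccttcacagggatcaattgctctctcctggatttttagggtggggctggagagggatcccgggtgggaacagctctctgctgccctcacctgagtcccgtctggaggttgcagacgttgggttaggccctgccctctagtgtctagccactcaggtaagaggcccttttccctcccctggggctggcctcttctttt
Krt18: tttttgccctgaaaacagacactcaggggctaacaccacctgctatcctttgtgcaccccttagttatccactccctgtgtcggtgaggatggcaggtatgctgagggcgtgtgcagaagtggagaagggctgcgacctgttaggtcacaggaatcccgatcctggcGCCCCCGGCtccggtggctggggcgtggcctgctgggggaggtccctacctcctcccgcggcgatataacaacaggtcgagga
Cdx2: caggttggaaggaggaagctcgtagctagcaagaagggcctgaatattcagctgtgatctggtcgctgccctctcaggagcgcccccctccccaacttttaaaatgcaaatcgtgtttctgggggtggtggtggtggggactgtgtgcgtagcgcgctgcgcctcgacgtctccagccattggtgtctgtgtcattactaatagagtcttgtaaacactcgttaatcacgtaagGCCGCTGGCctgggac
Gata3: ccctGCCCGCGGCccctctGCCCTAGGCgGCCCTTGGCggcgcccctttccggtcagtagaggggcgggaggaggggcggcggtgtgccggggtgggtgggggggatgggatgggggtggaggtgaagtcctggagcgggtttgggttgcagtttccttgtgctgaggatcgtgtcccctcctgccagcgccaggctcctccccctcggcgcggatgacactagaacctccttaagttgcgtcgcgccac

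The Krt8 stretch holds 1 match to AGATAA, those of Krt18 and Cdx2 1 match each to GCCNNNGGC, and that of Gata3 3 matches to GCCNNNGGC. Matches were counted over all tested genes with an entry, 11182 promoters of 300 bases from 250 before to 50 after the start. CATTCC was in 13.2% of the promoters of 2159 genes called higher, in 14.02% of 856 called lower and in 12.2% of all. AGATAA was in 5.88%, 8.18% and 6.75%, in the same order. GCCNNNGGC was in 27.7%, 20.3% and 24.0%, and GGGCGG, the box of KLF and SP factors, in 69.6%, 55.0% and 60.6%. The last 2 motifs are made of G and C, and the median GC content of the promoters was 62% for genes called higher, 58% for genes called lower and 60% for all. The octamer ATTTGCAT was in 1.95%, 2.45% and 1.53%, and the AP-1 motif TGANTCA in 5.56%, 4.44% and 5.14%. These shares describe letters in a window and were not tested.

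Of 25 genes of the inner cell mass and epiblast tested, 5 were called higher (20%, near the 18.8% of all genes) and 6 lower (24% against 7.97%), and the median change was -0.20. Sox2, a factor required by the epiblast, had 0.101, 0.0793, 0 and 0.589 CPM in morulae, at most 13 reads in a library, and 18.6, 16.3, 25.4 and 14.1 CPM in blastocysts (change 4.03 ± 0.23, limma adjusted p = 2.75e-16). Nanog, which specifies the epiblast, stood at 24.6, 37.7, 37 and 90.7 CPM in morulae, with library D apart from the other three, and at 167, 124, 137 and 178 CPM in blastocysts. The groups did not overlap, and Nanog rose by 1.81 ± 0.28 (limma adjusted p = 1.91e-06). Pou5f1, the core pluripotency factor Oct4, was not called, with 50.4, 23.1, 23.5 and 33.1 CPM and 73.3, 51, 53.6 and 41.9 CPM. Morula library A lay among the blastocyst values, and without it the call was made (change 0.78 ± 0.24 with all libraries). Upp1, a uridine phosphorylase, rose by 3.25 ± 0.26, Tfcp2l1, a factor of naive pluripotency, by 1.46 ± 0.26 and Etv5, an ETS factor downstream of FGF, by 1.25 ± 0.23. Spic, an ETS-family factor, fell from 639, 1748, 1133 and 656 CPM to 107, 61.1, 97.4 and 60 CPM, 12.8-fold. Klf2, a naive pluripotency factor, fell from 145 ± 29.3 to 40.3 ± 8.85 CPM, and Morc1 (2.11), Enox1 (1.45) and the threonine dehydrogenase Tdh (1.28) fell by the amounts given. Dppa3, a maternal factor that protects DNA methylation, had 4293, 8071, 8806 and 5351 CPM and 3836, 4142, 2384 and 2451 CPM. Its fall of 1.03 ± 0.18 sat at the threshold and was not called without 18S reads in the total, with quantile normalization, with the GC trend removed, or without any one of morula replicates B and C and blastocyst replicates C and D. Esrrb (-0.54), Zfp42 (0.59), Klf4 (-0.12), Prdm14 (-0.33) and Sall4 (0.19) were not called.

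Of 22 genes of the primitive endoderm tested, 14 were called higher and 2 lower, with a median change of 1.34. Quantile normalization gave 10 higher and 2 lower, and removing the GC trend 11 and 2. Matrix products and endocytic receptors were among the genes that rose. Gata6, which specifies the lineage, stood at 200.3, 161, 153 and 153 CPM in morulae and 198, 197, 163 and 221 CPM in blastocysts, with library D the highest of all, and was not called (change 0.23 ± 0.23, limma adjusted p = 0.437). Pdgfra, the platelet-derived growth factor receptor that marks committed cells, went from 0.101, 1.82, 3.78 and 0.725 CPM to 16.2, 6.83, 12.5 and 12.8 CPM, with no overlap and morula values spread widely (limma adjusted p = 4.06e-07). Sox17 had no read in any morula library and 0.429, 0.952, 1.25 and 0.488 CPM in blastocysts. It was not called on this scale (change 0.81 ± 0.26) and was called with a pseudocount of 0.1, in edgeR and in DESeq2, at least 5.61-fold higher against 3 reads per library. Sparc, a matrix glycoprotein of the parietal endoderm, had the largest change, from 0.456, 2.42, 1.19 and 0.952 CPM to 30.2, 22.6, 22.8 and 20.3 CPM (change 3.52 ± 0.28). Of the basement membrane chains, Col4a1 rose by 2.77 ± 0.29, Col4a2 by 2.46 ± 0.23, Lama1 by 2.47 ± 0.33, Lamb1 by 2.30 ± 0.25 and Lamc1 by 1.55 ± 0.28. The endocytic receptors of the endoderm also rose, Lrp2 by 3.09 ± 0.41, Cubn by 1.42 ± 0.33 and Amn by 1.15 ± 0.30. The call of Cubn was lost with a pseudocount of 5 and with quantile normalization. Cited1, a transcriptional coactivator, fell from 368, 396, 409 and 460.3 CPM to 104, 104, 101 and 143 CPM, and Gata4, a GATA factor of the lineage, from 5.16, 6.14, 7.47 and 4.8 CPM to 1.84, 2.52, 0.626 and 0.488 CPM. Sox7, Foxa2 and Hnf4a were not analysed here.

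**Figure D2:**
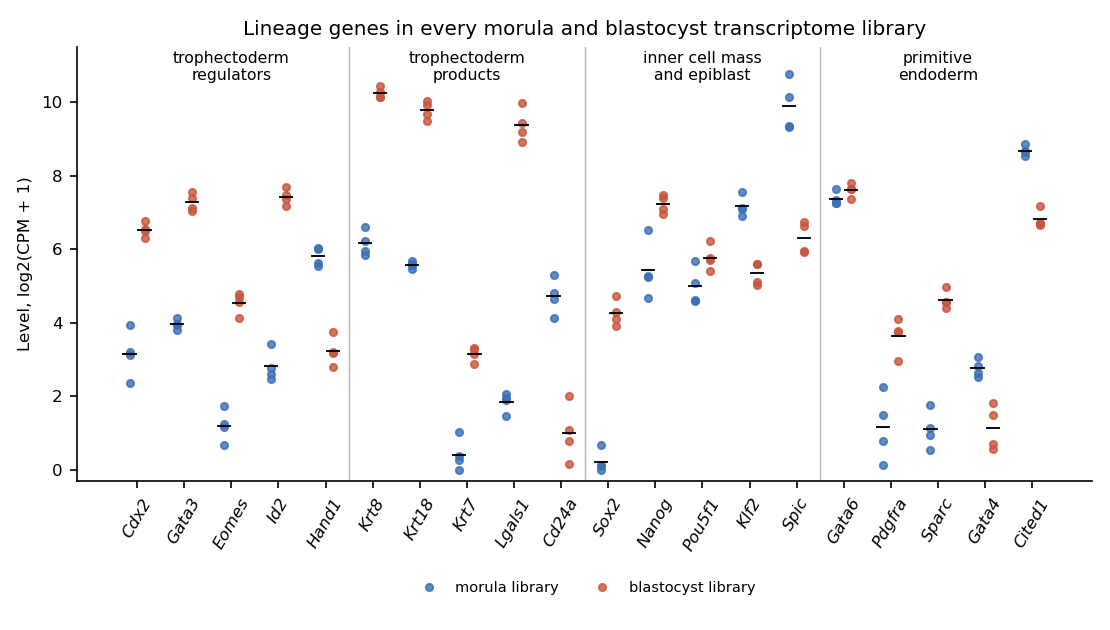
Level of 20 lineage genes on the log2(CPM + 1) scale (vertical axis) in each of the 4 morula (blue) and 4 blastocyst (red) libraries, with black bars at the mean. Every trophectoderm gene but Hand1 and Cd24a lies higher in all 4 blastocyst libraries, while Spic, Klf2, Gata4 and Cited1 lie lower and Gata6 and Pou5f1 overlap.

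Junction genes of the sealing epithelium rose in majority. Of 35 tested, 23 were called higher and none lower by limma, with a median change of 1.49. At an unadjusted p under 0.05 in limma, 30 were higher and 0 lower, and edgeR and DESeq2 each called 21 higher and 0 lower. The largest change was that of Dsg2, a desmosomal cadherin, with 2.73, 2.02, 3.68 and 3.72 CPM in morulae and 53.5, 40.9, 48.8 and 38.7 CPM in blastocysts, a narrow spread in both (change 3.54 ± 0.17, limma adjusted p = 2.77e-18). Dsp, the desmosomal plaque protein desmoplakin, rose by 3.15 ± 0.38 and Gjb5, a gap junction connexin, by 3.53 ± 0.22. Among the claudins that seal tight junctions, Cldn6 went from 9.52, 11.1, 11.1 and 18.5 CPM to 77.5, 57.1, 77 and 63.9 CPM and Cldn4 from 25.6, 47.5, 49.6 and 47 CPM to 98.5, 109.8, 130.0 and 81.4 CPM. Cldn3 rose by 2.63 ± 0.23 and Cldn7 by 1.76 ± 0.27. Morula library A was the lowest for Cldn4, whose call was lost with the GC trend removed. Of the scaffold proteins below the claudins, Tjp3 rose by 2.62 ± 0.36, while Tjp1 stood at 44.1, 58.1, 62.9 and 45 CPM and 51.1, 61.1, 48.2 and 45.9 CPM with full overlap (change -0.02 ± 0.18, limma adjusted p = 0.961). Cdh1, the E-cadherin of adherens junctions, rose by 1.84 ± 0.20 and Ctnna1, the alpha-catenin that links it to actin, by 1.05 ± 0.14, whereas beta-catenin, Ctnnb1, was not called (change 0.17 ± 0.17). The apical polarity genes Pard6b (1.81), Prkci (1.68), Pard3 (1.52) and Prkcz (1.49) were all called higher.

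Of 20 genes for ion and water transport into the blastocoel, 7 were called higher (35%) and 1 lower (5%), with a median change of 0.78. The shares over all genes were 18.8% and 7.97%. Atp1b1, a beta subunit of the sodium pump that drives fluid across the trophectoderm, rose from 1.42, 4.36, 6.27 and 3.04 CPM to 43.2, 19.2, 39.5 and 37.3 CPM. Blastocyst library B was the lowest of its stage, and the groups did not overlap (change 2.96 ± 0.28, limma adjusted p = 8.29e-11). Another beta subunit, Atp1b3, was not called (change -0.20). The anion exchanger Slc4a2 (2.18) and the transporter scaffold Slc9a3r1 (2.92) were called higher. Slc12a2, a cotransporter of sodium, potassium and chloride, fell from 97.3, 239.6, 226 and 139 CPM to 17.4, 12.4, 12.3 and 18.8 CPM (change -3.37 ± 0.25, limma adjusted p = 2.81e-13). Aqp3, a water and glycerol channel, stood at 6.53, 16.2, 9.41 and 17.3 CPM and 29.7, 17.5, 20.1 and 22.8 CPM and was not called. It was called without morula replicate B or D.

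Basement membrane and integrin genes, some of which the endoderm list also holds, numbered 15 higher and 1 lower of 28 tested (median change 1.40). Beside the collagen and laminin chains above, the syndecan Sdc4 rose by 3.42 ± 0.26, Lama5 by 2.48 ± 0.29, the fibronectin gene Fn1 by 2.06 ± 0.32 and dystroglycan, Dag1, by 2.01 ± 0.26. Of the integrin subunits, Itga6, a laminin receptor chain, rose by 2.17 ± 0.26 and Itga5, a fibronectin receptor chain, by 1.69 ± 0.28. Their common partner Itgb1 was not called, with 22.8, 36.5, 41.4 and 40.4 CPM in morulae and 55.1, 49.6, 44.9 and 63.1 CPM in blastocysts (change 0.60 ± 0.22). Vtn, vitronectin, fell from 1.82 ± 0.918 to 0.0934 ± 0.0919 CPM, a call lost with a pseudocount of 5.

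Actin cytoskeleton genes numbered 23 higher and 0 lower of 35 tested by limma (median change 1.23), 28 and 0 at an unadjusted p under 0.05, 16 and 0 by edgeR, 17 and 0 by DESeq2, and 16 and 0 with TMM factors. Myh9, the heavy chain of nonmuscle myosin IIA, went from 24.6, 13.6, 11.7 and 21.3 CPM to 110.3, 92.7, 139 and 68 CPM, and the second heavy chain Myh10 rose by 2.21 ± 0.23. Lcp1, the actin bundler plastin 2, had the largest change, 2.95 ± 0.29. Tagln2 (2.67), Cnn2 (2.55), Msn (2.30), Tpm1 (2.16), Capg (2.14) and Tmsb4x (2.00), which bind, cap or sequester actin, also rose. Of the cytoplasmic actins, Actg1 went from 549, 572, 412 and 432 CPM to 1782, 1427, 1169 and 939 CPM, a call lost with the GC trend removed. Actb went from 1732, 2188, 1643 and 1945 CPM to 3937, 3794, 2905 and 3044 CPM, where the groups did not overlap but the change of 0.86 ± 0.18 stayed under the threshold, which it passed with quantile normalization. Vim, an intermediate filament of mesenchyme, was not called (change -0.49).

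Of 20 galectin, annexin and S100 genes tested, 11 were called higher and 1 lower (median change 1.05). Beside Lgals1, Lgals4 rose from 0.608, 1.35, 6.02 and 2.13 CPM to 59.6, 60.8, 52.3 and 51.7 CPM and Lgals7 by 2.34 ± 0.28. Lgals8, a tandem-repeat galectin, fell from 193, 237, 293 and 255 CPM to 85.5, 108, 95.3 and 116 CPM, a call lost with the GC trend removed. Anxa5, which binds phosphatidylserine, rose by 2.26 ± 0.27. Anxa2 and its partner S100a10 rose by 1.23 ± 0.22 and 1.34 ± 0.21. The call of Anxa2 was lost with TMM factors, in edgeR and DESeq2, and without morula replicate A.

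**Figure D3:**
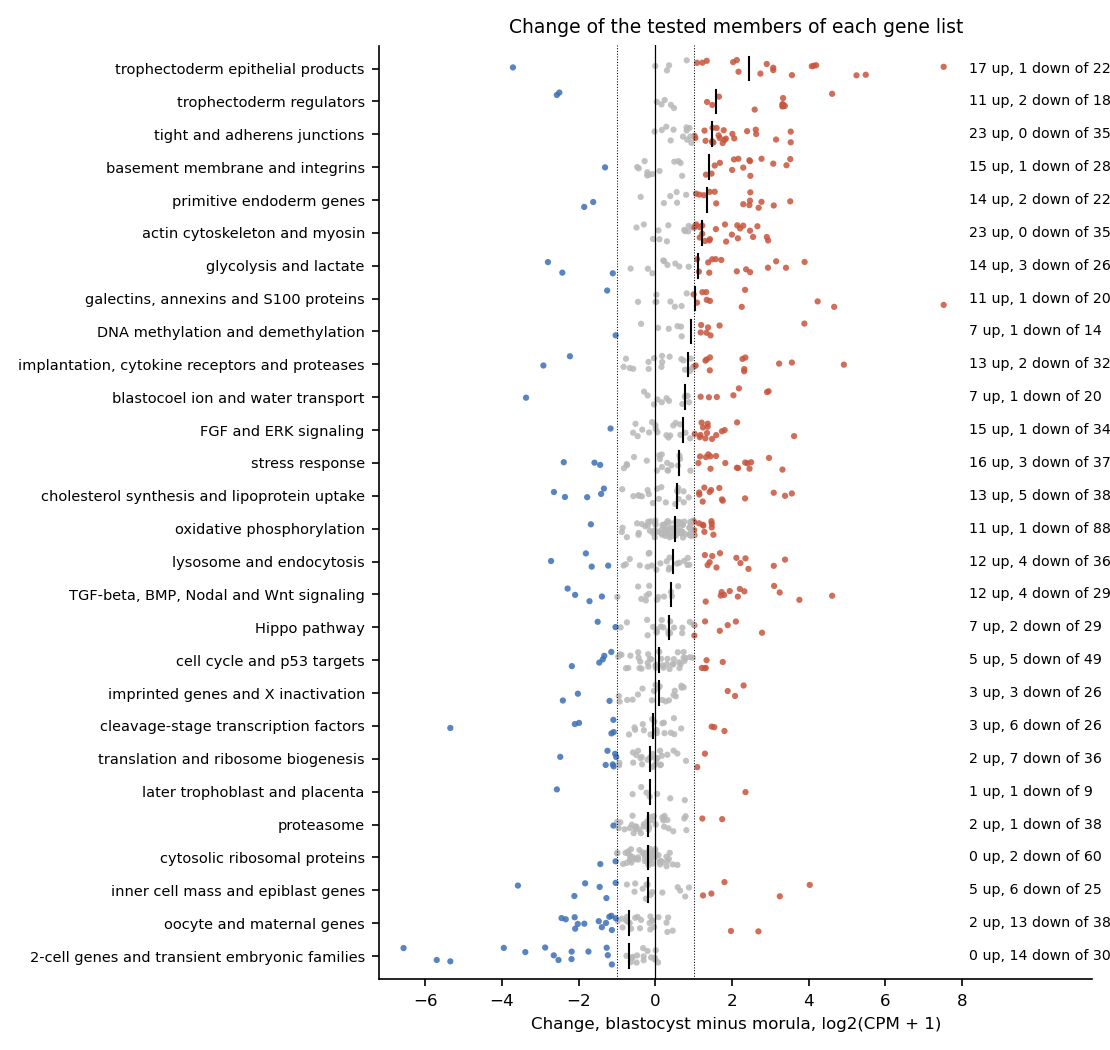
Change of each tested member of the 28 gene lists on the log2(CPM + 1) scale (horizontal axis), one row per list ordered by its median (black bar). Red members were called higher and blue ones lower, with the counts at the right. Medians run from 2.46 for trophectoderm epithelial products to -0.69 for oocyte and maternal genes and for 2-cell genes, against 0.16 over all genes.

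Among signaling genes, the Hippo pathway links cell polarity to Cdx2 through Yap1 and Tead factors. Of 29 Hippo pathway genes tested, 7 were called higher (24.1%) and 2 lower (6.90%), shares near the 18.8% and 7.97% of all genes, with a median change of 0.35 that was 0.10 with TMM factors, and edgeR called 4 higher and 4 lower. Tead2, a DNA-binding partner of Yap1, had the largest change, from 4.61, 0.476, 0.348 and 2.13 CPM to 21.1, 11.2, 21.9 and 11.8 CPM. The cytoplasmic effectors did not pass the test, as Yap1 stood at 62, 37.5, 36.5 and 28.7 CPM and 56.1, 45.2, 50.7 and 50.7 CPM (change 0.35 ± 0.18) and the changes of Wwtr1 and of the inhibitor Amotl2 were 0.39 and 0.39. The Yap1 targets Ccn1 and Ccn2 rose by 1.02 ± 0.29 and 1.30 ± 0.24, the first of them at the threshold for a call. Of the kinases that restrain Yap1, Lats2 (0.90) and Lats1 (0.14) were not called and Taok1, an upstream kinase, fell by 1.50 ± 0.18, a call lost with the GC trend removed.

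In FGF and ERK signaling 15 of 34 genes were called higher and 1 lower (median change 0.72), and 7 were called higher with quantile normalization. Fgf4, the ligand made by epiblast cells, had 5.37, 9.55, 3.48 and 4.49 CPM and 7.8, 7.28, 8.13 and 14 CPM and was not called (change 0.65 ± 0.22). Its receptors Fgfr1 and Fgfr2 rose by 1.59 ± 0.22 and 1.35 ± 0.26, and Fgfr2 went from 10.8, 19.4, 16.1 and 16 CPM to 55.1, 39.6, 30.7 and 40.2 CPM. Among the feedback targets, Dusp4, a phosphatase that turns off ERK, rose from 4.86, 1.51, 2.94 and 7.7 CPM to 66.6, 56.6, 48 and 59.8 CPM, the largest change of the list (3.62 ± 0.38, limma adjusted p = 6.09e-10). Spry2 rose by 1.31 ± 0.25 and Dusp6 by 1.37 ± 0.32, the latter lost with a pseudocount of 5 and with quantile normalization. The early-response genes Jund (2.14), Ier2 (1.81), Jun (1.37) and Junb (1.21) were called higher and Myc was called lower (-1.17 ± 0.30). The call of Myc was lost with a pseudocount of 5 and without morula replicate B. Fos (0.01) and Egr1 (-0.16) were not called.

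For TGF-beta, BMP, Nodal and Wnt signaling, 12 of 29 genes were called higher (41.4%) and 4 lower (13.8%), with a median change of 0.41. The shares over all genes were 18.8% and 7.97%. Of the Wnt ligands, Wnt7b rose from 1.77, 2.06, 1.69 and 3.9 CPM to 49.9, 45.1, 44 and 34.8 CPM and Wnt6 from 0, 0.436, 0 and 0.77 CPM to 7.84, 12.2, 10.1 and 9.76 CPM, while Wnt10b fell by 2.09 ± 0.25. Axin2, a feedback target of Wnt signaling, rose from 0.76, 0, 0.0996 and 0.408 CPM to 11.1, 12, 11.3 and 10.5 CPM. The activin receptors Acvr1b and Acvr2b rose by 2.33 ± 0.29 and 2.16 ± 0.30, and the inhibitory Smad7 by 1.94 ± 0.22. Tgfb1 fell from 4.1, 4.24, 10.2 and 8.52 CPM to 0.0429, 0.112, 0.834 and 1.34 CPM, and Id3, a relative of Id2, fell by 1.72 ± 0.30 while Id1 was not called (-0.16). Nodal and Bmp4 were not analysed here.

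Genes for attachment and invasion of the uterus numbered 13 higher and 2 lower of 32 tested (median change 0.84). Besides Prss8, its fellow membrane protease St14, matriptase, rose by 3.23 ± 0.23. The receptors Erbb2 and Erbb3 rose by 2.28 ± 0.21 and 2.32 ± 0.28, and the ligand Hbegf by 1.31 ± 0.28. Egfr itself was near the floor, with 1.01, 0, 0 and 0.0906 CPM in morulae and 0, 1.46, 0.459 and 0 CPM in blastocysts, and was not called. In the cytokine pathway of LIF, the ligand Lif rose by 1.00 ± 0.17, at the threshold for a call, and Stat3 by 2.32 ± 0.29. The shared receptor Il6st rose from 0.0506, 0.396, 0.299 and 0.181 CPM to 3.56, 2.63, 1.42 and 1.95 CPM (lost with a pseudocount of 5). Lifr was not called (0, 0, 0.398 and 0 CPM and 0.514, 1.06, 0.542 and 0.915 CPM). Socs3, an inhibitor of this pathway, fell from 19.3, 18, 3.33 and 7.89 CPM to 0.514, 0.784, 0.417 and 0.183 CPM, in contrast to Socs1. The protease Mmp9 rose by 1.42 ± 0.24 and the lysosomal protease Ctsh fell by 2.23 ± 0.18. Of 9 tested genes of later trophoblast and placenta, Tfeb was called higher (2.35 ± 0.23) and Hand1 lower, 11.1% each against 18.8% and 7.97% of all genes. Prl3d1, Gcm1, Tpbpa and 10 others were not analysed here.

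More glycolytic genes rose than fell. Of 26 tested, 14 were called higher and 3 lower (median change 1.12). Transcripts of the glucose transporter Slc2a3 rose from 13.1, 24.9, 20.7 and 29.2 CPM to 278, 166, 233 and 279.6 CPM, those of the transporter Slc2a1 by 2.13 ± 0.24 and those of hexokinase 2, Hk2, which phosphorylates glucose, from 42.5, 53.8, 55.3 and 46.1 CPM to 222, 197, 383 and 266 CPM. None of these groups overlapped (limma adjusted p = 3.59e-13 for Slc2a3 and 3.16e-12 for Hk2). Gapdh, of the lower part of the pathway, went from 1.42, 0.555, 1.19 and 1.09 CPM to 34.6, 27.1, 27.5 and 28.9 CPM, 27.7-fold. Tpi1 (2.94), Eno1 (2.48), Pkm (3.16), Aldoa (1.49) and Gpi1 (1.58) rose as well. Gapdh and several of these enzymes have many processed pseudogenes, so reads lost to such copies make their levels uncertain. Pgk1 (0.23) and Pgam1 (-0.07) were not called. The lactate dehydrogenase subunits moved apart, with Ldhb, the subunit carried over from the oocyte, falling from 21.1, 22.1, 12.6 and 22.5 CPM to 1.03, 2.86, 1 and 3.42 CPM and Ldha rising from 6.08, 13, 7.42 and 5.98 CPM to 23.5, 20.8, 14 and 16.1 CPM. The rise of Ldha lost its call with a pseudocount of 5, TMM factors, quantile normalization, edgeR and DESeq2. Hexokinase 1 (-1.11 ± 0.22) and the regulator Pfkfb3 (-2.43 ± 0.32) were called lower.

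Of 88 nuclear-encoded genes of oxidative phosphorylation, 11 were called higher (12.5% against 18.8% of all genes) and 1 lower (1.14% against 7.97%), and their median change was 0.51. The count of higher genes was 5 with TMM factors and 20 with quantile normalization. Cyc1, cytochrome c1 of complex III, rose from 143 ± 30.6 to 407 ± 52.5 CPM and Cox7b2, a germline subunit of complex IV, fell from 30.3 ± 8.19 to 8.95 ± 3.39 CPM, both calls lost with the GC trend removed. Cox5a (0.53), Sdhd (0.35) and Ndufa9 (-0.47) of complexes IV, II and I were not called. Genes of cholesterol synthesis and lipid transport moved in both directions. Of 38 tested, 13 were called higher (34.2%) and 5 lower (13.2%), with a median change of 0.58. Several carriers rose, with Fabp3, a fatty acid binding protein, from 181, 106, 118 and 99.4 CPM to 1299, 1139.6, 1789 and 1711 CPM, apolipoprotein E, Apoe, up by 3.39 ± 0.25 and Fabp5 by 2.34 ± 0.19. In the synthetic pathway, the first enzyme Hmgcs1 was not called (-0.57), nor was Sqle (-0.86). Fdft1 fell by 2.36 ± 0.16, Idi1 by 1.78 ± 0.25 and Msmo1 by 1.41 ± 0.20, while Mvk rose by 1.67. Stard4, a carrier of cholesterol, fell from 188, 153, 95.9 and 94.9 CPM to 19, 27.8, 18.9 and 14.3 CPM.

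Lysosomal and endocytic genes numbered 12 higher (33.3%) and 4 lower (11.1%) of 36, with a median change of 0.47. The shares over all genes were 18.8% and 7.97%. Lamp1, of the lysosomal membrane, rose by 1.37 ± 0.16, and Ctsd, a lysosomal protease, from 91.5, 104, 88.8 and 117 CPM to 359.8, 259.5, 295 and 227 CPM. Tfeb, the transcription factor that drives lysosomal genes, rose from 25.1, 10.9, 8.51 and 12.5 CPM to 67.1, 83.4, 78.2 and 58.7 CPM. The transferrin receptor Tfrc fell from 198, 482, 496 and 325 CPM to 65.3, 43.6, 41 and 65.7 CPM, opposite to the ferritin chain Ftl1. Stress-response genes numbered 16 higher (43.2%) and 3 lower (8.11%, near the share of all genes) of 37, with a median change of 0.63. Xbp1, of the unfolded protein response, rose from 1.16, 2.62, 8.71 and 5.17 CPM to 57.4, 51.8, 43.8 and 32.8 CPM, and the chaperone of the endoplasmic reticulum Hspa5 rose by 2.35 ± 0.20, while Dnajb9, a cochaperone of the same compartment, fell from 42.2, 99.5, 85.8 and 78.8 CPM to 14.2, 11.3, 11.3 and 16.3 CPM. Ddit3, the stress factor CHOP, went from 2.23, 5.71, 4.38 and 5.57 CPM to 36.3, 22.3, 26.7 and 11.8 CPM, with blastocyst library D the lowest, and Atf3, another stress-induced factor, from 0, 0, 0 and 0.181 CPM to 2.91, 2.07, 1.71 and 0.976 CPM, a call lost with a pseudocount of 5. Of the genes of redox defence, Txnrd1 (2.97), Srxn1 (2.41) and Hmox1 (2.13) rose, whereas Atf4 (0.33), Trib3 (0.04) and Hspa1a (-0.82) were not called.

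More genes of the DNA methylation machinery rose than fell. Of 14 tested, 7 were called higher and 1, Dppa3, lower (median change 0.94). Uhrf1, which brings the maintenance methylase to replicating DNA, rose from 3.34, 5.55, 4.83 and 6.25 CPM to 112, 70.3, 86.5 and 81.8 CPM (change 3.89 ± 0.23, limma adjusted p = 1.54e-15). The maintenance methylase Dnmt1 rose by 1.38 ± 0.18, and of the de novo methylases Dnmt3b went from 65.1, 48.8, 54.8 and 63.6 CPM to 188, 212, 209.8 and 145 CPM and Dnmt3a rose by 1.34 ± 0.18. Their cofactor Dnmt3l was not called (115, 92.3, 75.2 and 88.7 CPM and 87.4, 61.1, 81.2 and 58 CPM). The demethylating Tet1 and Tet2 rose by 1.19 ± 0.17 and 1.44 ± 0.21, and the call of Tet1 was lost with TMM factors, in edgeR and in DESeq2. Imprinted genes and regulators of X inactivation showed 3 higher and 3 lower of 26, which is 11.54% each against 18.8% and 7.97% of all genes. Their median of 0.10 was -0.09 with TMM factors. The amino acid transporter Slc38a4 rose from 2.84, 3.09, 11.9 and 6.8 CPM to 30.8, 21.7, 32.1 and 38.6 CPM and the noncoding Meg3 by 2.08 ± 0.25, with Igf2 under the filter on low values, while Sgce fell from 10.5, 15.1, 16.8 and 31.5 CPM to 1.41, 3.86, 1.75 and 3.11 CPM.

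The cell cycle list had 5 higher and 5 lower of 49, which is 10.2% each against 18.8% and 7.97% of all genes. Its median of 0.11 was -0.16 with TMM factors, where 5 were higher and 9 lower, and quantile normalization gave 3 higher and 10 lower. Ccnb1, the mitotic cyclin B1, fell from 742, 1691, 1771 and 1688 CPM to 362, 318, 259 and 298 CPM and its kinase Cdk1 by 1.37 ± 0.22. Cyclin D1, Ccnd1, and the inhibitor Cdkn1c were not called (0.90 and 0.01). E2f1, a factor of entry into S phase, rose from 6.08, 5.15, 1.79 and 7.66 CPM to 14.4, 17.1, 18.9 and 24.2 CPM. Cdkn1a, the p53 target p21, stood at 209.5, 161, 135 and 118 CPM and 80.4, 90.2, 67.9 and 72.6 CPM and missed the call (change -0.97 ± 0.23), which it passed in 9 of the alternatives. Translation genes had 2 higher and 7 lower of 36 (5.56% and 19.4%, median -0.13). With the GC trend removed the list had 1 higher and 2 lower. Eif4e, the cap-binding protein, fell from 787, 1734, 1321 and 1471 CPM to 241, 247, 160.0 and 283 CPM, and its repressor Eif4ebp1 rose from 469.7, 189, 223 and 308 CPM to 602, 647, 718 and 797 CPM, a call lost in edgeR and DESeq2. The elongation factors Eef1a1 (-0.14) and Eef2 (0.80) were not called. Cytosolic ribosomal protein genes had 0 higher and 2 lower of 60 (0% and 3.33%, both under the shares of all genes, median -0.19). Counts were 0 and 7 with TMM factors, 0 and 6 by edgeR and 0 and 5 by DESeq2. At an unadjusted p under 0.05 there were 4 higher and 20 lower. The 2 called were Rpl5, from 1761, 2539.6, 2835 and 2505 CPM to 1350.3, 1196, 1146 and 969 CPM, and Rpl21 (change -1.43), and both have processed copies whose reads may be shared, as many genes of this list do. Rpl13 (0.29), Rpl3l (-0.21) and Rpl8 (0.35) were not called. Proteasome genes had 2 higher and 1 lower of 38 (5.26% and 2.63%, both under the shares of all genes, median -0.18, and 5 lower with TMM factors). The immunoproteasome subunit Psmb9 rose from 2.43 ± 0.983 to 10.4 ± 2.39 CPM and Psma1 fell from 715 ± 215 to 324 ± 35.1 CPM. The first of these calls was lost in edgeR and DESeq2 and the second with quantile normalization, with the GC trend removed and without morula replicate B. Psmc3 (0.76), Psmd4 (0.47) and Psmb4 (0.21) were not called.

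More transcripts of oocyte and maternal genes fell than rose. Of 38 oocyte and maternal genes tested, 13 were called lower and 2 higher (median change -0.69), and edgeR called 23 lower and 2 higher. Nlrp14, a maternal gene of the NLR family, fell from 16.3, 12.8, 12.9 and 29.1 CPM to 1.37, 3.47, 1.38 and 3.48 CPM. Zp3, of the egg coat, fell from 8.1, 14.8, 13 and 9.25 CPM to 5.87, 2.24, 3.04 and 5.49 CPM, and the oocyte growth factor Gdf9 from 9.06, 4.08, 5.08 and 3.49 CPM to 1.24, 1.57, 1.58 and 3.05 CPM, calls that were lost with a pseudocount of 5 and, for Gdf9, without morula replicate A. Bmp15, its partner ligand, was not called (-0.98). The germline RNA-binding genes Dazl and Ddx4 fell by 2.34 ± 0.24 and 2.10 ± 0.26. Members of 1 maternal complex, the subcortical complex of the oocyte, moved apart. Ooep rose from 11.1, 18, 19.4 and 20.6 CPM to 104, 91.4, 147 and 123 CPM and Khdc3 from 238, 167, 243 and 290.2 CPM to 829, 762, 890.4 and 1209 CPM, while Nlrp5 fell by 1.15 ± 0.30 and Padi6 by 2.02 ± 0.19, and Tle6 was not called (0.29 ± 0.32).

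Of 30 genes of the 2-cell stage and of transient embryonic families, 14 were called lower and none higher by limma (median change -0.69), 19 and 0 at an unadjusted p under 0.05, 24 and 0 by edgeR and by DESeq2, and 9 and 0 with the trend on GC content removed. Beside the Trim43 and Obox6 genes, the copies Eif4a3l1 and Eif4a3l2 of a helicase gene fell by 3.39 ± 0.34 and 2.65 ± 0.34. Zscan4d, a marker of 2-cell genome activation, was already low in morulae (0.709, 0.912, 0.697 and 0.816 CPM) and was not called against 0, 0, 0.25 and 0 CPM, nor was Obox3 (0.07). Of 26 cleavage-stage transcription factors, 3 were higher and 6 lower (11.54% and 23.1%, median -0.05). Klf17 fell from 7.8, 21.9, 9.96 and 14 CPM to 4.2, 1.9, 2.25 and 1.71 CPM, and the retinoic acid receptor Rarg by 2.10 ± 0.23. Nr5a2, a nuclear receptor, fell from 154, 188, 150.4 and 95.4 CPM to 87.4, 64.3, 72.6 and 47.3 CPM, and its call was lost without morula replicate B or blastocyst replicate D. Of other cell types, the hemoglobin gene Hba-a1 stood at 28.6, 39.3, 31.6 and 21 CPM in morulae and 3.13, 2.8, 1.75 and 2.93 CPM in blastocysts and was called lower, and the blood list (Hba-a1 and Cd74) summed to 26.9 to 48.7 CPM in morulae and 6.34 to 11.2 CPM in blastocysts. Markers of unfertilized or degenerated oocytes, 8 genes that are all in the maternal list too, summed to 27.2 to 36.6 CPM in morulae and 7.88 to 12.9 CPM in blastocysts, with 5 of 8 called lower. The part of such cells in the falls was not tested.

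Few genes were near or at the floor in the transcriptomes of one stage and present in those of the other. There were 28 genes with at most 3 reads in every morula library and at least 1 CPM in every blastocyst library, and 9 with the reverse pattern. Ccdc42 had 1 read in all morula libraries together and 22.4, 16.1, 17 and 13.7 CPM in blastocysts, and Rin3, an exchange factor for Rab5, had 0 to 3 reads per morula library and 19, 10.9, 21.6 and 14.9 CPM in blastocysts. Mapre3, a protein of microtubule ends, had 1 read in morulae and 11, 12.8, 12.4 and 5.37 CPM in blastocysts, and Fbln5, a matrix fibulin, 1 read and 7.28, 3.02, 8.88 and 6.89 CPM. In the reverse direction Tdpoz4 had 3.54, 6.66, 9.01 and 7.3 CPM in morulae and no read in blastocysts, at least 43.8-fold lower against 3 reads per library. Cyp7b1, an oxysterol hydroxylase, had 2.48, 3.05, 10.5 and 3.35 CPM and no read, at least 32.1-fold lower. Usp17lb, Cd177, Rhcg and Tdpoz8 had mean levels of 4.77 ± 3.99, 4.54 ± 3.03, 4.31 ± 1.41 and 3.98 ± 1.68 CPM in morulae and at most 3 reads in any blastocyst library. The calls of these last 4 and of Cyp7b1 were lost with a pseudocount of 5. With a wider margin, 17 genes were under 1 CPM in every morula library and at 10 CPM or more in every blastocyst library, among them Sox2, Axin2, Prss8, Epn3, Adh1 and Anxa6, and 2 genes were the reverse, Dynap and the provisional A530040E14Rik. These patterns hold for the transcriptome libraries only, since the morula gradients held reads of some of these genes. Ccdc42 stood there at 7.16, 7.69 and 6.75 CPM over fractions 1 to 5. Over fractions 6 to 10, Prss8 stood at 10.2, 43.3 and 50.1 CPM and Epn3 at 0.0207, 11.9 and 27.1 CPM.

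Not every rise was a first appearance. Of the 2750 genes called higher, 1894 (68.9%) had their highest mean level of all 8 stages in the blastocyst, against 3992 of all 14642 tested genes (27.3%), which the direction of the call favours. A further 297 were highest in GV oocytes and 301 in metaphase II (MII) oocytes. Anxa6 stood at 53 ± 7.4 CPM in GV oocytes, 6.72 ± 1.99 in MII oocytes, 7.08 ± 0.286 in 2-cell embryos, 0 ± 0 in 8-cell embryos, 0.464 ± 0.136 in morulae and 36.4 ± 5.69 in blastocysts (mean ± SD, n = 4 each). Uhrf1 stood at 205 ± 39.4 CPM in MII oocytes, 5.84 ± 1.86 in 4-cell embryos and 87.6 ± 17.5 in blastocysts. Rin3 fell from 71.7 ± 6.62 CPM in 2-cell embryos to 0.127 ± 0.253 in 4-cell embryos before its return, and Ooep went from 2815 ± 189.8 CPM in GV oocytes to 10.3 ± 1.99 in 4-cell embryos. Uhrf1, Rin3 and Ooep were low from the 4-cell stage to the morula and higher on either side, while Anxa6 had dropped by the MII oocyte and dropped again after the 2-cell stage. By contrast Cdx2 was at most 1.83 ± 2.37 CPM before the morula and Krt8 at most 12.4 ± 3.47 CPM. Of the 1167 genes called lower, 349 were highest in 4-cell embryos, 204 in 2-cell embryos, 200 in morulae and 167 in 8-cell embryos. Trim43c stood at 200.5 ± 64.1, 173 ± 108 and 212 ± 59.4 CPM in 4-cell embryos, 8-cell embryos and morulae, so its level before the fall was flat within the spread. Hand1 was listed at 0 in every oocyte and zygote library, reached 107 ± 50 CPM in 4-cell embryos and stood at 8.71 ± 2.77 CPM in blastocysts.

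**Figure D4:**
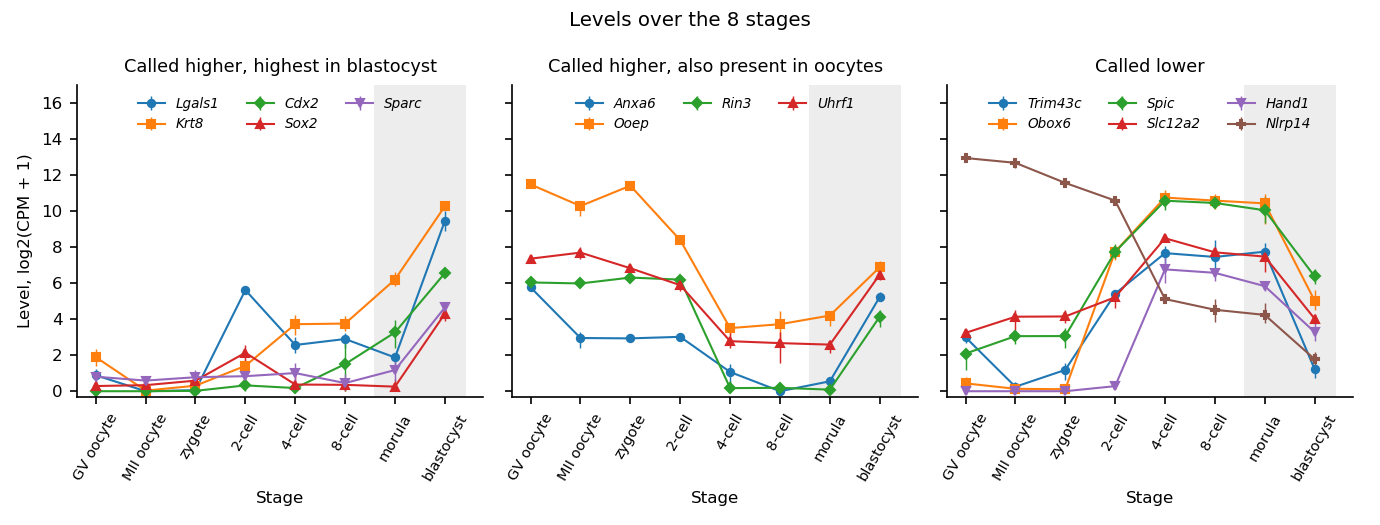
Level of 15 genes over the 8 stages (horizontal axis) on the log2(CPM + 1) scale (vertical axis), with the mean of 4 transcriptome libraries and bars from the lowest to the highest library. The shaded band holds morula and blastocyst. The genes at left are highest in the blastocyst, those in the middle also stood high in oocytes, and those at right fell into the blastocyst.

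The gradients of the same batches gave a separate measurement. Gradient fractions carry numbers only in the labels. The mean CPM over fractions 6 to 10 of a gradient was used as its heavy side, which in such gradients usually holds RNA on ribosomes (n = 3 for each stage, libraries of 0.418 to 43.2 M reads). In 1699 of 14642 genes (11.6%) all 3 blastocyst gradients lay above all 3 morula gradients, and in 1717 (11.7%) all lay below. Of the 2750 genes called higher in transcriptomes, 745 (27.1%) lay above and 75 (2.73%) below. Of the 1167 called lower, 451 (38.6%) lay below and 13 (1.11%) above. The light side, fractions 1 to 5, also moved with the transcriptomes. There 700 (25.5%) of the genes called higher lay above and 66 (2.40%) below. Of those called lower, 244 (20.9%) lay below and 66 (5.66%) above. Over all genes the light-side shares were 14.6% above and 7.38% below. The shared direction is therefore not particular to the heavy side. Lgals1 stood at 80.1, 179 and 167 CPM in morula gradients A to C and 1241, 544 and 1385 CPM in blastocyst gradients. Krt8 went from 345, 780.1 and 626 CPM to 2107, 2619.8 and 3092 CPM and Trim43c from 79.1, 12.1 and 22.9 CPM to 1.67, 1.06 and 0.24 CPM, in the direction of the transcriptome. For several genes of the lineages and signaling the gradients overlapped. Sox2 had 1.97, 0.795 and 3.78 CPM on the heavy side in morulae and 1.74, 0.158 and 1.14 CPM in blastocysts, where the gradients overlap, and 2.04, 0.924 and 1.57 and 3.15, 3.67 and 6.67 CPM on the light side (fractions 1 to 5). Cdx2 had 298, 169 and 223 CPM and 294, 296 and 282 CPM on the heavy side, already high in morulae. Gata3 had 42.5, 36.9 and 43.2 CPM and 59.1, 25.7 and 40.7 CPM, and Socs1 52.3, 139 and 186 CPM and 109, 117 and 94 CPM. Some genes called higher in transcriptomes lay lower in all 3 blastocyst gradients. Ftl1 went from 5080.3, 3185 and 3969.9 CPM to 3074, 2670.3 and 2646 CPM on the heavy side, Cldn4 from 893, 643 and 1151 CPM to 466, 629.7 and 588 CPM and Eif4ebp1 from 1469, 1864 and 1585 CPM to 1216, 1256 and 962 CPM. Of the 17 trophectoderm products called higher, 11 lay above on the heavy side, as did 10 of the 14 glycolytic genes called higher and 10 of 23 junction genes. Counts were 3 of 11 for trophectoderm regulators, 2 of 15 for basement membrane genes, 2 of 15 for FGF and ERK genes, of which 3 lay below, 1 of 14 for primitive endoderm genes and 0 of 7 for DNA methylation genes. These shares compare with 27.1% of all genes called higher, and the differences between lists were not tested. The difference between transcriptomes and gradients was not tested.

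The calls moved with the GC content of the transcripts. GC content was taken for 14167 of the 14642 genes (96.8%) from an annotation of another build, by symbol. Across these genes, which are not independent replicates, Spearman's rho between the change and GC content was 0.36. With these genes split by GC content into 10 bins of like size, 4.38% of the lowest bin were called higher and 17.1% lower, and in the highest bin 38.4% and 3.81%. The median GC content was 54.3% for genes called higher, 47.1% for genes called lower and 50.4% for all. The gap between the highest and lowest bin, as the median log2 deviation from the mean of all 32 transcriptomes, was 1.22, 0.469, 0.534 and 0.727 in morula libraries A to D and 1.77, 1.77, 1.95 and 1.69 in the blastocyst libraries. It was 0.416 to 0.690 in 8-cell libraries. Removing the trend on GC per library left 2312 genes higher (16.3%) and 1004 lower (7.09%) of 14167, which included 1974 and 783 of the genes called on the deposited scale. With the trend removed, the trophectoderm regulators stood at 11 higher and 2 lower, junction genes at 24 and 0, primitive endoderm genes at 11 and 2, actin genes at 17 and 0, and glycolytic genes at 12 and 3. The median GC content of these lists ran from 51.8 to 55.1%. The part of GC content in the remaining changes was not tested.

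**Figure D5:**
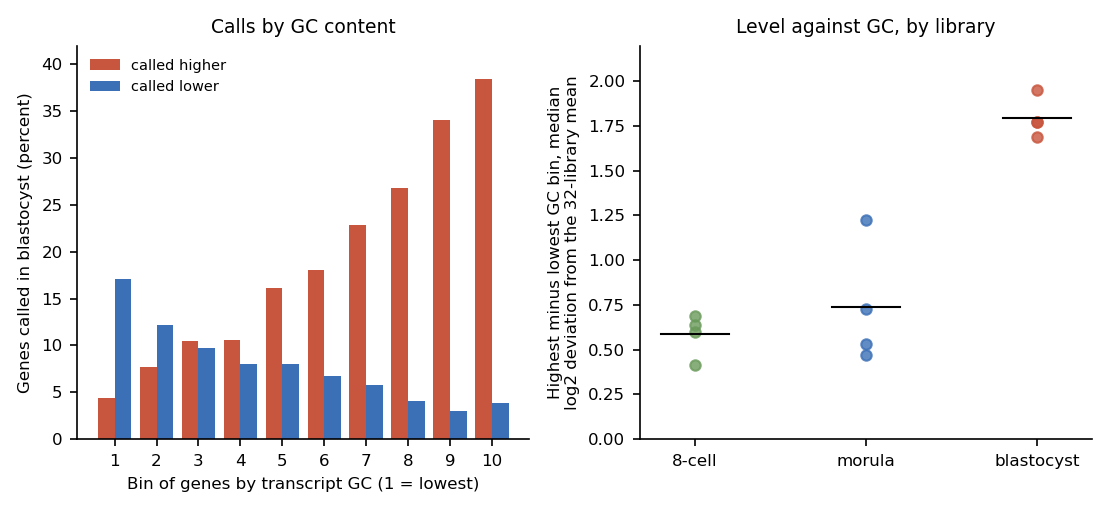
Left, percentage of genes called higher (red) and lower (blue) in blastocysts in each of 10 bins of 14167 genes ordered by transcript GC content. Right, gap between the highest and the lowest GC bin in the median log2 deviation from the mean of 32 libraries, for each 8-cell, morula and blastocyst library, with bars at the mean. Genes called higher rise from 4.38% in the lowest bin to 38.4% in the highest, and all 4 blastocyst libraries lie above all morula libraries.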

How the data were processed

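Transcriptomes of 4 morula and 4 blastocyst pools were compared, within a fit of the 32 transcriptome libraries of 8 stages. The authors deposited 1 table of CPM, counts per 1 M reads of each library, with gene symbols. The 4 blastocyst transcriptome columns and 14 fraction columns sum above 1 M because some symbols repeat with identical values, so they were recorded as a signal, and the authors' values in them were used as CPM. Per the submitters' processing notes, Trim Galore 0.6.7, FastQC, HISAT2 2.2.1, featureCounts 2.0.1, edgeR and build GRCm39 were used, with no role or order given. The annotation, the strand setting and the handling of reads shared between copies are not given in the sources used here. Amplified reads without molecular identifiers are not independent molecules.

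Of 15854 symbols, 159 formed 76 groups with identical values, of which 1 each was kept, leaving 15771. Genes at 1 CPM or more in at least 4 of the 32 libraries were tested (14642) with limma 3.58.1 (lmFit, eBayes with trend, R 4.3.3) on log2(CPM + 1), contrast blastocyst minus morula, with Benjamini-Hochberg adjustment over all of them. Fold ratios quoted are ratios of mean CPM. All values of the libraries used came out as whole reads (100%, tolerance 0.05 reads), on which edgeR 4.0.16 and DESeq2 1.42.0 were run as alternatives, and edgeR called 4597 genes. The fit was tested on simulated data with known changes. It recovered 4% of 1.5-fold changes, 36% of 2-fold, 96% of 4-fold and 100% of 8-fold changes (50 genes each). Of unchanged genes 0.159% were called. The changed genes were drawn only from genes whose morula level was well above the filter. The simulation held no trend on GC content and no shift of scale between the stages. Its shares therefore do not carry over to low genes or to such shifts in the real data. Libraries of 1 stage differed beyond sampling noise (chi-square per degree of freedom 32.1 to 137, over genes), so each counted as 1 replicate. Members and gene lists were chosen with earlier results of these data known. Genes named are the 12 largest called rises and falls with groups that do not overlap, and the 8 largest gains and losses of mean CPM among called genes. To these were added the 6 highest with at most 3 reads per library at the other stage, and the first 3 members of each list. The largest called changes of each list and the 2 highest markers of each other cell type were also taken, without provisional symbols. Some genes that this rule takes are not reported here. Other list members named were chosen after their values were seen. Promoters came from RefSeq (GRCm38.p6), matched by symbol, and GC content from a mouse transcript annotation, also by symbol. The alternative with the trend on GC content removed (per library, lowess span 0.3) was chosen after seeing the data.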

Additional observations from a re-analysis of the deposited data

Results flagged for a closer look

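In a check of 336 groups of 4 libraries, of which chance marks about 1 in 20, 17 genes had 1 library far from the other 3 of its stage. Levels are in CPM and no explanation was tested. Morula library A stood below the others for Fbxo15 (1208, others 2832 to 3359), Ccnb1 (742, others 1688 to 1771) and Cldn4 (25.6, others 47.0 to 49.6), and above them for Egfr (1.01, others 0 to 0.0906). Morula library D stood below for Cd177 (0.272, others 5.15 to 7.42) and Lats2 (12.4, others 15.9 to 16.4), and above for Atf3 (0.181, others 0). Morula library C stood below for Ldhb (12.6, others 21.1 to 22.5) and above for Lifr (0.398, others 0).

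Blastocyst library D stood above for Cited1 (143, others 100.6 to 104) and Fgf4 (14, others 7.28 to 8.13). Blastocyst library B stood above for Dynap (0.616, others 0) and Obox3 (0.336, others 0) and below for Trib3 (4.54, others 6.51 to 6.76). Blastocyst library C stood above for Zscan4d (0.250, others 0) and Hoxa10 (0.584, others 0.122 to 0.171), and blastocyst library A above for Sdhd (110.3, others 66.6 to 72.2).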

How the results depend on the processing

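Of 3917 calls (2750 higher, 1167 lower), 2198 (1512 and 686) were made with a pseudocount of 5 and 7420 (4773 and 2647) with no threshold on the size of the change. Quantile normalization gave 1785 higher, and falls numbered 2292 in edgeR and 2279 in DESeq2. Leaving out 1 library gave 3846 to 4236 calls. Over the 23 alternatives none of the 162 tested named genes reversed its direction while called. The calls of 14 were lost with a pseudocount of 5, 12 with the trend on GC content removed, and 6 each in edgeR, in DESeq2 and with quantile normalization.

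The difference in genes at 1 CPM or more ran from 454 to 524 without 1 library and that in the share of 18S ribosomal RNA from 3.65 to 6.12 percentage points, both at an exact permutation p of 0.0571, the smallest that 3 against 4 libraries allow. Counting genes with at least 10 reads instead, the difference was 275.25 (exact permutation p = 0.171). The share of the 100 most abundant genes differed by -0.0288 percentage points, by -1.01 without blastocyst replicate B at the lowest, and by 0.213 without morula replicate A, 0.109 without morula replicate C, 0.438 without blastocyst replicate A and 0.760 without blastocyst replicate D.

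With the library letter as a replicate block, without the 2-cell libraries, whose letters differ, 3917 genes were called (2750 higher and 1167 lower). In this balanced layout the block leaves every change as it was. In the main fit only 5 genes passed the size threshold and not the adjusted p, so the calls rest almost wholly on size. The same counts therefore cannot show whether the letters pair the libraries. Correlations between libraries showed no general pairing by letter, but weak correlations cannot show that same-lettered pools had separate origins. Deviations from the stage means correlated across genes at -0.07, -0.05, -0.05 and 0.17 for same-lettered morula and blastocyst libraries, and not every library correlated best with its own letter. The D libraries of the 2 stages did correlate best with each other. Genes that were not called may still differ. Depth was 15.99 to 24.3 M reads per library, and levels under 3 reads cannot be ranked.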
